A study of Mus musculus with 9 samples.

Results

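The comparison described here is the loss of the remaining Prdm16 allele in newborn mice: homozygous mutants, Prdm16LacZ/LacZ (KO), against heterozygotes, Prdm16LacZ/+ (HET). It takes the 3 arrays labelled KO1 to KO3 and the 3 labelled HET1 to HET3, which are 6 of the 9 arrays of the series, and it covers 19938 genes. The other 3 arrays come from wild-type mice, Prdm16+/+ (WT), and served for the shared estimate of the spread and for values set beside the comparison. Every array holds RNA of brain ventricular zone cells that were dissected from newborns of the C57BL/Ka strain, not cultured and not treated. RNA was amplified and hybridised to Affymetrix Mouse Gene ST 1.0 arrays, whose probe sets report the level of a transcript as log2 values.

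Both groups carry the LacZ allele, in 1 copy in HET and in 2 copies in KO. The labels name no Cre driver for it, no sorting of the dissected cells and no number of pups per array. Nor do they say whether the arrays of a genotype stem from different pups or litters. The p-values therefore reflect only how far these arrays differ from each other, and that spread may be technical. In dissected tissue, fewer cells of a type and less RNA per cell cannot be told apart.

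PRDM16 is a zinc finger regulator of transcription that carries a PR domain. It drives the brown fat programme, and in blood and in the embryonic forebrain it is known for a role in stem cells. In the forebrain it is made by radial glia, the progenitors that line the ventricles, first give rise to neurons and around birth turn to making astrocytes and ependymal cells, whose motile cilia move the cerebrospinal fluid. The comparison with HET asks what is lost with the last functional copy, as opposed to what is lost with the first. Hgf and the defence against oxidative stress are known to have been pursued in this study from these mice, so the direction of such genes here is not independent evidence.

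Radial glia markers were present, with 1 of 30 below the lower quartile of genes on all 9 arrays, but this did not set them apart from other cell types: the same held for 1 of 15 microglia, 1 of 15 endothelial and 0 of 19 neuronal markers. Array medians lay between 5.80 and 5.92. HET and KO arrays correlated across probe sets at r between 0.988 and 0.994, a range that overlaps those of arrays of the same genotype (0.989 to 0.994 within HET, 0.990 to 0.992 within KO), and probe sets are not independent replicates. Arrays of a genotype differed more in HET and KO, with a median gene SD of 0.117 and 0.130, than in WT (0.0769). Sex-linked transcripts were not balanced: Xist, the transcript of the inactive X chromosome, was at 10.73 in HET replicate 1, 10.50 in KO replicate 2 and 11.002 in KO replicate 3, and between 4.42 and 4.99 in the other HET and KO arrays. KO replicate 2 also held Y-linked transcripts (Eif2s3y at 6.85, against 4.36 in KO replicate 3 and 9.19 in KO replicate 1), as did WT replicate 1, so each of these arrays reads as both sexes. Of all genes 41 passed as described below, and 24 with Xist as a covariate. Without KO replicate 2 and WT replicate 1, a setting chosen after seeing the data, 8 passed, of which 7 were among the 41: Hgf, Mt2, Pdk4, Papss2, Fam107a, Has2 and Ptx3. The lowest array weights, which limma estimates from how far an array strays from its group, were 0.364 for KO replicate 2 and 0.547 for HET replicate 1.

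Prdm16 itself was lower in every KO array than in every HET array. It lay at 6.995, 7.34 and 6.998 in HET replicates 1, 2 and 3 and at 5.69, 6.41 and 6.17 in the KO replicates, a log2 difference of -1.02 (SE 0.18, 95% interval -1.42 to -0.62). The KO mean was 49.2% of the HET mean on the linear scale. Over all genes this difference did not pass (limma with Benjamini-Hochberg adjustment, adjusted p = 0.0781, n = 3 arrays per genotype). It passed with array weights (adjusted p = 0.0468) and with quantile normalization (0.0318), and with 1 array left out in turn its adjusted p lay between 0.0781 and 0.379. The position of the probes with respect to the LacZ cassette is unknown here, and the signal left in KO says nothing of the transcript's function. None of the 5 measured genes on either side of Prdm16 on its chromosome passed, with differences between -0.13 (Actrt2) and 0.19 (Tnfrsf14).

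Most genes called between HET and KO fell. Of 19938 genes, 41 passed at an adjusted p under 0.05 (0.206%): 32 fell (0.16%) and 9 rose (0.0451%). At least 2-fold changes made up 12 of the falls (0.0602%) and 3 of the rises (0.015%). Hgf, Mt2, Luzp2 and Pdk4 fell the most, and Moxd1, Pdzrn3 and Ptx3 rose the most. Over all genes the difference was balanced, with a median of 0.0029 on the log2 scale, quartiles of -0.077 and 0.078, with 49% of genes below 0 and 51% above. Between HET and KO, 1303 genes (6.54%) had arrays that did not overlap, 3.45% with KO higher and 3.09% with KO lower, and all of the 41 called genes were among these. An unadjusted p under 0.05 was reached by 1229 genes (6.16%), 2.87% with KO higher and 3.3% lower.

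The number of calls moved with single arrays, and so the count is a rough one. It was 75 without HET replicate 1, 12 without HET replicate 2, 19 without HET replicate 3, 27, 19 and 19 without KO replicates 1, 2 and 3, and 19, 22 and 24 without WT replicates 1, 2 and 3. With only the HET and KO arrays in the fit it was 8. The balance of directions moved as well: 16 rose and 32 fell after quantile normalization, and 8 and 16 after median centring. Without KO replicate 2 it was nearly even, with 9 rises and 10 falls (47.4% rises, against 22.0% with all arrays), and without HET replicate 1 there were 10 rises and 65 falls (13.3%). All 41 genes kept their sign in every setting, which was largely given beforehand because their HET and KO arrays did not overlap. In each of the 9 fits that left out 1 array, 10 passed: Hgf, Mt2, Luzp2, Pdk4, Papss2, Apoe, Fxyd1, Fam107a, F5 and Ptx3.

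**Figure D1:**
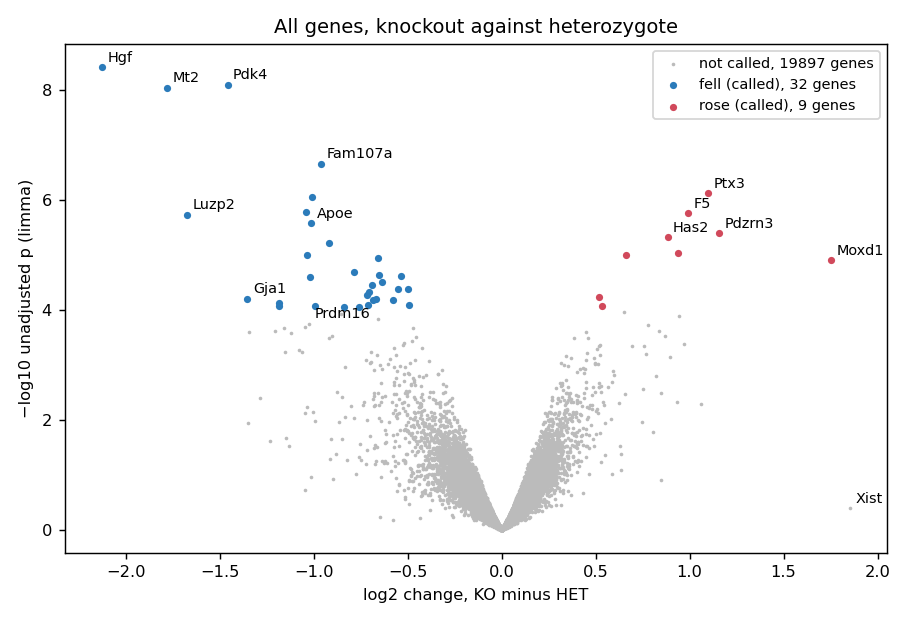
Each point is 1 of 19938 genes; the horizontal axis is the log2 difference of KO minus HET and the vertical axis is minus log10 of the unadjusted p from limma. The 32 blue genes fell and the 9 red genes rose at an adjusted p under 0.05, Prdm16 lies just short of the called genes, and Xist at the far right differs between arrays of 1 genotype and did not pass.

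Hgf encodes hepatocyte growth factor, the secreted ligand of the receptor tyrosine kinase MET. It had the largest fall of all genes, 4.36-fold, and also the smallest adjusted p (6.04e-05, shared with Mt2 and Pdk4). Log2 values of 6.14, 6.57 and 6.12 in HET stood against 4.15, 4.20 and 4.09 in KO. The KO arrays thus lay close together and far below the lowest HET array, with a difference of -2.13 (SE 0.12). The KO mean of 4.15 was below the lower quartile of the genes on each array, where values can be background, so the size of the fall is uncertain. The WT arrays read 6.85, 6.81 and 6.68.

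No other gene of the HGF system passed. Of 12 measured genes of HGF, its receptor, its activators and its inhibitors, Hgf was the 1 that passed and also the 1 with an unadjusted p under 0.05, and the median difference was -0.073 (all genes: 0.0029). Of all genes 0.206% passed and 6.16% reached that unadjusted p. Met, the receptor, lay at 3.93, 3.61 and 3.93 in HET and 3.65, 3.75 and 3.78 in KO, below the lower quartile of all 9 arrays, where a difference might not be seen. Among the activating proteases, Hgfac lay at 0.099 (SE 0.07), Hpn at -0.13 (SE 0.095) and St14 at 0.13 (SE 0.13). The inhibitors Spint1 and Spint2 lay at -0.056 and -0.10, and Gab1, the adaptor that docks to MET, at -0.11.

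The metallothioneins Mt2 and Mt1, small cysteine-rich proteins that bind zinc and copper, fell together, and they are neighbouring genes, the 1 adjacent pair among the 41 genes. Mt2 read 10.11, 10.07 and 10.02 in HET and 8.20, 8.10 and 8.55 in KO and fell 3.43-fold (log2 difference -1.78, SE 0.11, adjusted p = 6.04e-05). Mt1 read 7.88, 7.91 and 7.94 in HET and 7.19, 7.19 and 7.38 in KO and fell 1.58-fold (-0.66, SE 0.084, adjusted p = 0.0137). In both genes the HET arrays were tightly grouped and every KO array was lower. The call of Mt1 was lost without HET replicate 2 (adjusted p = 0.0857), HET replicate 3 (0.0569), KO replicate 1 (0.0669) or KO replicate 2 (0.0636).

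No other listed metallothionein or metal transporter passed. Mt3, the form typical of neurons and astrocytes, read 7.72, 7.48 and 7.72 in HET and 7.72, 7.96 and 7.57 in KO, a difference of 0.11 (SE 0.13) that did not pass. Mtf1, the zinc sensor that drives Mt1 and Mt2, lay at 0.0051 (SE 0.071), and Slc30a1, a zinc exporter under its control, at -0.062 (SE 0.093). Slc30a10, an exporter of manganese, lay at 0.38 (SE 0.11, adjusted p = 0.498). Of 12 measured genes of the metallothionein and zinc list 2 fell, none rose, and the median was -0.024. Of all genes 0.16% fell and 0.0451% rose.

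The promoters of Mt2 and Mt1 are shown because the pair moved together and its known regulators bind there. The 250 bases before each RefSeq start (GRCm38.p6, plus strand, chr8:94172368-94172617 for Mt2 and chr8:94178839-94179088 for Mt1) read as follows. Matches to TGCNCNC on either strand, where N is any base, are in capitals. This pattern is a loose form of the core of the metal response element, so a match need not be such a core.
Mt2: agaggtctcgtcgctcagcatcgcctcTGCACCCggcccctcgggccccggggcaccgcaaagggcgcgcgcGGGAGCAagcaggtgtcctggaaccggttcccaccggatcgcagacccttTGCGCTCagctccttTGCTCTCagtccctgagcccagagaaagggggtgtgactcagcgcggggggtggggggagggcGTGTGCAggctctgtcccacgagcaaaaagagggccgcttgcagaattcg
Mt1: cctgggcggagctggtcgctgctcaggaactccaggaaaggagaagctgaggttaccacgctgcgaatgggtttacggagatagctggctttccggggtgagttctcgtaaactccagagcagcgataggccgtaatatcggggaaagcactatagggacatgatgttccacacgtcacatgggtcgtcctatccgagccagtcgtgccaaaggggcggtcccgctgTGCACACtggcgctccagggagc
Mt2 held 5 matches, between 50 and 223 bases before the start, and Mt1 held 1, at 23 bases. For each gene 1 start was listed and only the 250 bases before it were searched, so elements outside that window were not counted. Neither count covers a whole promoter. Among the 32851 promoters that RefSeq lists, 44.4% held at least 1 match and 0.344% held 5 or more. Promoters were listed for 35 of the 41 called genes, some with several starts, which made 46 promoters. Of these 46, 25 held a match and 2, those of Mt2 and Dcdc2a, held 5. Another motif, ACANNNTGT, a palindrome bound by steroid receptors, was present once in the Mt1 promoter, where it is not in capitals, in 5.84% of all promoters and in 4 of the 46 promoters of called genes. Such matches describe the sequence and are not binding sites.

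Pdk4, the kinase that switches off pyruvate dehydrogenase and so turns cells away from burning glucose, read 7.93, 8.19 and 8.02 in HET and 6.58, 6.64 and 6.56 in KO. The KO arrays lay within a narrow band, and the gene fell 2.75-fold (-1.46, SE 0.087, adjusted p = 6.04e-05). The other kinases lay at -0.076 (Pdk1), -0.028 (Pdk2) and -0.28 (Pdk3, SE 0.12), and the catalytic subunit Pdha1 at -0.18 (SE 0.088). Of 12 measured genes of pyruvate dehydrogenase and its kinases, Pdk4 was the 1 that passed, against 0.206% of all genes, with a list median of -0.13. Me1, the cytosolic malic enzyme that supplies NADPH, which is in no list and was chosen after its values were seen, fell by 0.69 (SE 0.10). The respiratory chain and ATP synthase had 0 calls among 37 genes and a median of -0.077, with Ndufb5 at -0.51 (SE 0.17), Ndufa10 at -0.27 and Uqcrc2 at -0.25.

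Pdk4, Mt1 and Mt2 are also known to respond to glucocorticoids, and they were the 3 calls among 15 measured genes of that list. Nr3c1, the glucocorticoid receptor, lay at 6.22, 6.40 and 6.51 in HET and 5.99, 5.92 and 5.91 in KO, a difference of -0.44 (SE 0.10) that did not pass (adjusted p = 0.254). None of the remaining responsive genes passed: Fkbp5 lay at 0.22 (SE 0.12), Tsc22d3 at 0.037 (SE 0.079), Sgk1 at 0.028 (SE 0.075) and Zbtb16 at 0.37 (SE 0.10). Fkbp5, Tsc22d3, Sgk1 and Zbtb16 are all from the members above 0. The list's median was 0.028, with 9 members above 0 and 6 below. At an unadjusted p under 0.05 by limma, 5 members were lower and 1 higher. Of all genes 49% lay below 0, 3.3% were lower at that p, 2.87% were higher and 0.16% fell.

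Astrocyte genes were the cell type list with the most calls, and all of them were falls. Of 19 measured markers, 4 fell (Gja1, Clu, Apoe and Cst3), none rose, 13 lay below 0 and 10 were lower at an unadjusted p under 0.05, against 0.16%, 49% and 3.3% of all genes. The list's median was -0.39 (all genes: 0.0029), and the mean of its members lay between 7.50 and 7.76 in the HET arrays and between 7.20 and 7.32 in the KO arrays. The list was described and not tested.

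Gja1, connexin 43, the main gap junction protein of astrocytes and radial glia, read 7.95, 8.60 and 7.76 in HET and 6.47, 7.08 and 6.70 in KO. It fell 2.55-fold (-1.35, SE 0.21, adjusted p = 0.0406), with the widest spread of the 4 genes. Apoe, the lipid carrier of the brain, read 9.35, 9.47 and 9.02 in HET and 8.25, 8.28 and 8.27 in KO and fell 2.02-fold (-1.01, SE 0.11, adjusted p = 0.00528). Clu, the secreted chaperone clusterin, read 8.34, 8.59 and 8.10 in HET and 7.52, 7.19 and 7.26 in KO, a 2.03-fold fall (SE 0.14, adjusted p = 0.0227). Cst3, the protease inhibitor cystatin C, went from 10.49, 10.56 and 10.46 to 10.04, 9.94 and 10.04, a smaller fall of 0.50 on the log2 scale (SE 0.073, adjusted p = 0.0325). In each of these genes all KO arrays lay below all HET arrays.

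Other astrocyte genes lay below 0 without passing. The water channel Aqp4 lay at -0.90 (SE 0.17, adjusted p = 0.107), Mlc1, a membrane protein of astrocyte endfeet, at -0.83 (SE 0.19), the glycolytic enzyme Aldoc at -0.55 (SE 0.15) and the glutamate transporter Slc1a2 at -0.52 (SE 0.12). Further markers lay above 0: Aldh1l1, a folate enzyme, lay at 0.10 (SE 0.12), S100b at 0.11 (SE 0.072) and Fgfr3 at 0.002 (SE 0.095). Gfap, the intermediate filament of mature astrocytes, read 4.73, 4.67 and 4.42 in HET and 4.73, 4.73 and 4.52 in KO, below the lower quartile in 7 of the 9 arrays.

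The astrocyte calls rested in part on single arrays: 1 to 3 of the 4 passed when 1 array was left out, and 0 with only the HET and KO arrays in the fit. Apoe passed in each of these 9 fits, and Gja1 in none of them (adjusted p 0.0502 to 0.169). The call of Clu was lost without HET replicate 2 (0.121), KO replicate 2 (0.104), KO replicate 3 (0.124) or WT replicate 1 (0.0672), and Cst3 was called without HET replicate 1 but in no other of the 9 fits. HET replicate 2 was the highest HET array for Gja1, Clu, Apoe and Cst3, and without it they lay at -1.11, -0.89, -0.92 and -0.47. That array also held the most transthyretin: Ttr, the defining transcript of choroid plexus epithelium, lay at 8.16 there and between 5.44 and 6.45 in the other 8 arrays.

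**Figure D2:**
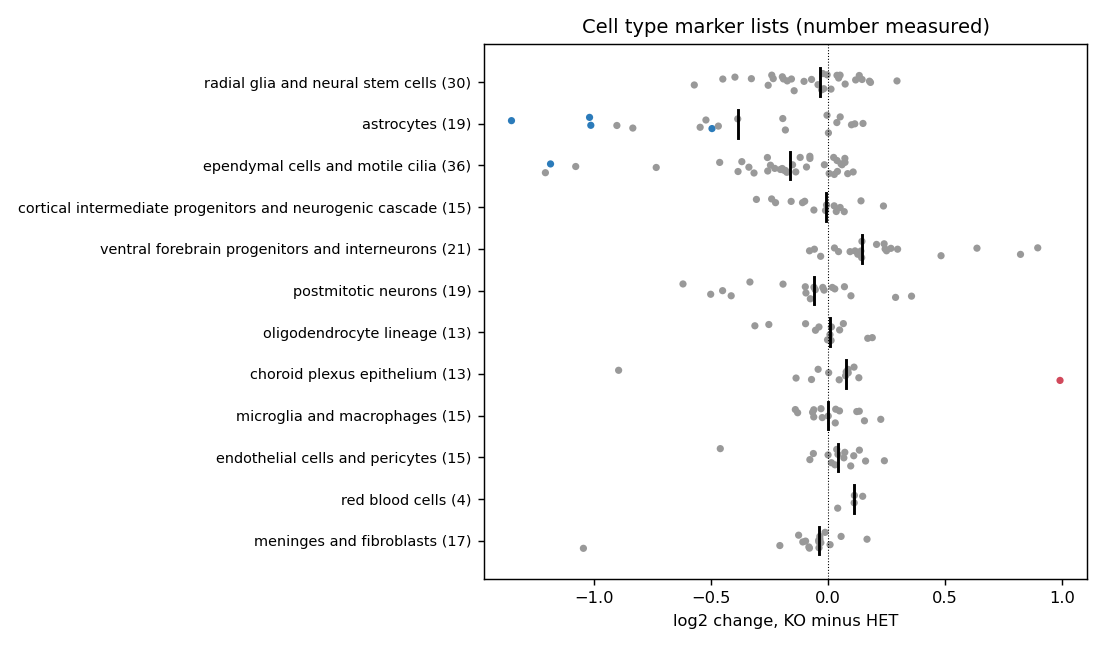
Each point is 1 measured gene of a cell type list at its log2 difference of KO minus HET (horizontal axis), the black bar is the list's median, blue points fell and red points rose at an adjusted p under 0.05, and grey points did not pass. Astrocyte genes had the lowest median, -0.39, with 4 falls, and ventral forebrain genes the highest, 0.15, with no call.

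Further falls included secreted and membrane proteins. Luzp2, a leucine zipper protein of the brain, read 9.25, 9.66 and 9.38 in HET and 7.62, 7.53 and 8.13 in KO and fell 3.19-fold (-1.68, SE 0.17, adjusted p = 0.00416). Fxyd1, phospholemman, a regulator of the sodium pump, read 7.68, 7.93 and 7.63 in HET and 6.75, 6.73 and 6.74 in KO, with KO arrays nearly equal, and fell 2.01-fold (SE 0.098, adjusted p = 0.00297). Htra1, a secreted serine protease, read 6.48, 6.74 and 6.29 in HET and 5.55, 5.25 and 5.62 in KO and fell 2.05-fold (SE 0.13, adjusted p = 0.0129). Htra1 did not pass when HET replicate 2 (0.0724) or KO replicate 2 (0.0521) was left out. Fam107a, an actin-associated protein known as a marker of outer radial glia in primates, read 6.92, 6.80 and 6.80 in HET and 5.91, 5.86 and 5.88 in KO and fell 1.95-fold (SE 0.08, adjusted p = 0.0011). The naming rule did not take Fam107a, which was chosen after its values were seen.

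Genes of motile cilia had 1 call among 36 measured. That call was Rsph4a, a protein of the radial spoke head, which read 6.19, 6.61 and 5.93 in HET and 5.42, 5.04 and 4.71 in KO and fell 2.28-fold (-1.19, SE 0.19, adjusted p = 0.0437). Of the list, 25 members lay below 0 and 13 were lower and none higher at an unadjusted p under 0.05, with a median of -0.16; of all genes 49% lay below 0, 3.3% were lower at that p and 0.16% fell. List means ranged from 5.39 to 5.55 in HET and from 5.18 to 5.30 in KO, and 9 members lay below the lower quartile of genes on all 9 arrays.

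Capsl, a calcium-binding protein of ciliated cells, read 6.51, 6.24 and 6.05 in HET and 4.82, 5.30 and 5.06 in KO (-1.21, SE 0.22, adjusted p = 0.0937) and did not pass, although no KO array reached a HET array. Enkur, a protein of sperm tails and cilia, lay at -1.08 (SE 0.22, adjusted p = 0.145) and the dynein heavy chain Dnah6 at -0.73 (SE 0.20). Without 1 array these genes passed in places, Capsl without WT replicate 3 (0.0406) and Enkur without KO replicate 1 (0.00632). The regulators of the programme did not pass: Foxj1, the master regulator of motile ciliogenesis, lay at -0.077 (SE 0.082), Mcidas, which starts multiciliated differentiation, at 0.072 (SE 0.076) and Rfx3, a transcription factor of ciliary genes, at -0.20 (SE 0.11).

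Iqcg, an IQ motif protein of the axoneme that the list did not hold, read 5.50, 5.63 and 5.39 in HET and 4.82, 4.14 and 4.004 in KO and fell 2.28-fold (-1.19, SE 0.19, adjusted p = 0.0437). KO replicates 2 and 3 lay below their lower quartile of genes, as did KO replicate 3 for Rsph4a, so the sizes of these falls are uncertain. Kif27, a kinesin linked to motile cilia, fell by 0.78 (SE 0.11) and Dcdc2a, a doublecortin domain protein of cilia, by 0.49 (SE 0.079); both were named after their values were seen, and KO replicate 2 of Kif27 also lay below its lower quartile. In the 9 fits that left out 1 array, Rsph4a and Iqcg each passed once, both without KO replicate 1, with adjusted p up to 0.232 and 0.297 in the others, and Dcdc2a never passed (0.0502 to 0.219). Rsph4a was highest in HET replicate 2, the array with the most Ttr, and without it lay at -1.005 (adjusted p = 0.232). Kif27 was lost without HET replicate 2 (0.145), HET replicate 3 (0.0796), KO replicate 2 (0.0878), KO replicate 3 (0.109) or WT replicate 3 (0.0552).

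The Iqcg promoter is shown as that of the called ciliary gene in which a site of RFX factors, known regulators of ciliary genes, matched more than once. Its 250 bases before the RefSeq start (GRCm38.p6, minus strand, chr16:33056187-33056436) read as follows, with the RFX motif GTTGCC, on either strand, in capitals.
Iqcg: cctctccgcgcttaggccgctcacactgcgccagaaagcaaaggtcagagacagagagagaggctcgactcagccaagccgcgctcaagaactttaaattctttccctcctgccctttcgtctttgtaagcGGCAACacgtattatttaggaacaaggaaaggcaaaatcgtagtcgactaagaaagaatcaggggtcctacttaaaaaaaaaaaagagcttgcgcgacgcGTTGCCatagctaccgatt
The 2 matches lie 19 and 119 bases before the start, and they describe the sequence and are not binding sites. The promoters of the called ciliary genes Kif27 and Dcdc2a held no match, and for Rsph4a no promoter was listed. The other called genes with a match were Fxyd1, Hapln1 and Papss2. At least 1 match was found in 10.4% of all promoters and in 4 of the 46 promoters of called genes. At least 2 were found in 0.740% of all promoters and in 1 of the 46, that of Iqcg.

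Genes of hyaluronan and the extracellular matrix changed in both directions. Of 19 measured genes of hyaluronan, proteoglycans and sulfation 2 rose (Ptx3 and Has2), 2 fell (Papss2 and Hapln1), and the median was -0.035. Of all genes 0.0451% rose and 0.16% fell. Ptx3, a long pentraxin that crosslinks hyaluronan, read 7.66, 7.86 and 7.73 in HET and 8.86, 8.72 and 8.96 in KO and rose 2.14-fold (1.10, SE 0.10, adjusted p = 0.00297). Has2, which synthesises hyaluronan, read 5.80, 5.75 and 5.64 in HET and 6.71, 6.38 and 6.75 in KO and rose 1.84-fold (0.88, SE 0.10, adjusted p = 0.00803). Both were lowest in WT, Ptx3 at 7.62, 7.33 and 7.34 and Has2 at 5.42, 5.42 and 5.46.

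The falling members act on sulfation and on hyaluronan binding. Papss2, which makes the sulfate donor for proteoglycan chains, read 6.62, 6.77 and 6.62 in HET and 5.70, 5.41 and 5.76 in KO and fell 2.06-fold (-1.04, SE 0.11, adjusted p = 0.00416), while its paralog Papss1 lay at 0.025 (SE 0.098). Hapln1, the link protein that joins proteoglycans to hyaluronan, read 4.94, 5.06 and 4.85 in HET and 4.38, 4.08 and 4.38 in KO and fell by 0.67 (SE 0.10, adjusted p = 0.0406), to below the lower quartile of genes on all 3 KO arrays, which leaves its size uncertain; it too was named after its values were seen. Ogn, a small leucine-rich proteoglycan, lay at -1.05 (SE 0.19, adjusted p = 0.0845), and Bcan, the brain proteoglycan brevican, at -0.49 (SE 0.11); neither passed, although Ogn did with Xist as a covariate (0.0194). Cspg5, neuroglycan C, chosen after its values were seen, fell by 0.71 (SE 0.11). The call of Has2 was lost without HET replicate 2 (adjusted p = 0.0677), and that of Cspg5 without HET replicates 2 or 3, KO replicates 2 or 3 or WT replicates 1 or 2 (up to 0.223). Hapln1 passed in none of the 9 fits without 1 array (0.0651 to 0.232).

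Basement membrane genes had 1 rise among 15 measured, against 0.0451% of all genes, and a median of 0.055. Nid1, nidogen, which links laminin to collagen IV, read 7.01, 6.89 and 6.80 in HET and 7.67, 7.53 and 7.49 in KO and rose 1.58-fold (0.66, SE 0.083, adjusted p = 0.0129). Lama1 lay at 0.46 (SE 0.14) and Lama2 at -0.57 (SE 0.11), on opposite sides of 0, and neither laminin chain passed. The call of Nid1 was lost without HET replicate 2 (adjusted p = 0.0814), HET replicate 3 (0.0502) or KO replicate 1 (0.0515).

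Moxd1, a copper-dependent monooxygenase related to dopamine beta-hydroxylase, had the largest rise among called genes. It read 4.79, 4.96 and 4.97 in HET and 6.10, 6.62 and 7.26 in KO, so that the KO arrays were all higher but spread widely, and the difference was 1.75 (SE 0.23, 3.37-fold, adjusted p = 0.0138). HET replicate 1 and the WT arrays lay below their lower quartile of genes, so the size of this rise is uncertain. Pdzrn3, a ubiquitin ligase with PDZ domains, read 6.30, 6.30 and 6.49 in HET and 7.46, 7.31 and 7.79 in KO and rose 2.23-fold (SE 0.13, adjusted p = 0.00741). Arsb, a lysosomal sulfatase that degrades dermatan and chondroitin sulfate, read 7.39, 7.24 and 7.42 in HET and 7.98, 7.74 and 7.92 in KO and rose 1.45-fold (SE 0.085, adjusted p = 0.0437). Lrig1, a membrane protein that restrains growth factor receptors, read 6.43, 6.42 and 6.26 in HET and 6.91, 6.90 and 6.85 in KO and rose 1.43-fold (SE 0.079, adjusted p = 0.0395).

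These rises were sensitive to single arrays. Moxd1 was lost without HET replicate 2 (adjusted p = 0.106), HET replicate 3 (0.0563) or KO replicate 2 (0.085), and Pdzrn3 without HET replicate 2 (0.0724). Arsb kept its call without KO replicate 2 and Lrig1 without HET replicate 1, and both lost it without any other array, with adjusted p up to 0.232 and 0.141.

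Igfbp5, a secreted binder of insulin-like growth factors, read 6.07, 6.33 and 5.94 in HET and 7.11, 6.85 and 7.19 in KO and rose 1.92-fold (0.94, SE 0.12, adjusted p = 0.0129). It was the 1 call among 13 measured genes of this growth factor system, of which 10 lay above 0, with a median of 0.092. Of all genes 0.0451% rose and 51% lay above 0. The receptor Igf1r lay at 0.28 (SE 0.099), its docking protein Irs1 at 0.26 (SE 0.099) and the ligand Igf1 at 0.33 (SE 0.15), without passing. Igfbp5 no longer passed without HET replicate 3 (0.0502), KO replicate 1 (0.066) or KO replicate 3 (0.0683).

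F5, coagulation factor V, which was listed among choroid plexus genes, read 4.51, 4.17 and 4.27 in HET and 5.39, 5.33 and 5.20 in KO and rose 1.99-fold (0.99, SE 0.10, adjusted p = 0.00416). In the HET arrays it lay below the lower quartile of genes, so the size of its rise is uncertain. None of the other 12 measured choroid plexus genes passed: Ttr read 6.08, 8.16 and 5.53 in HET and 5.95, 5.69 and 5.44 in KO, Aqp1 lay at 0.13 (SE 0.11), Folr1 at 0.087 and Kcne2 at 0.11, and the list's median was 0.075. The mean level over the list lay between 5.24 and 5.43 in HET and between 5.32 and 5.49 in KO.

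**Figure D3:**
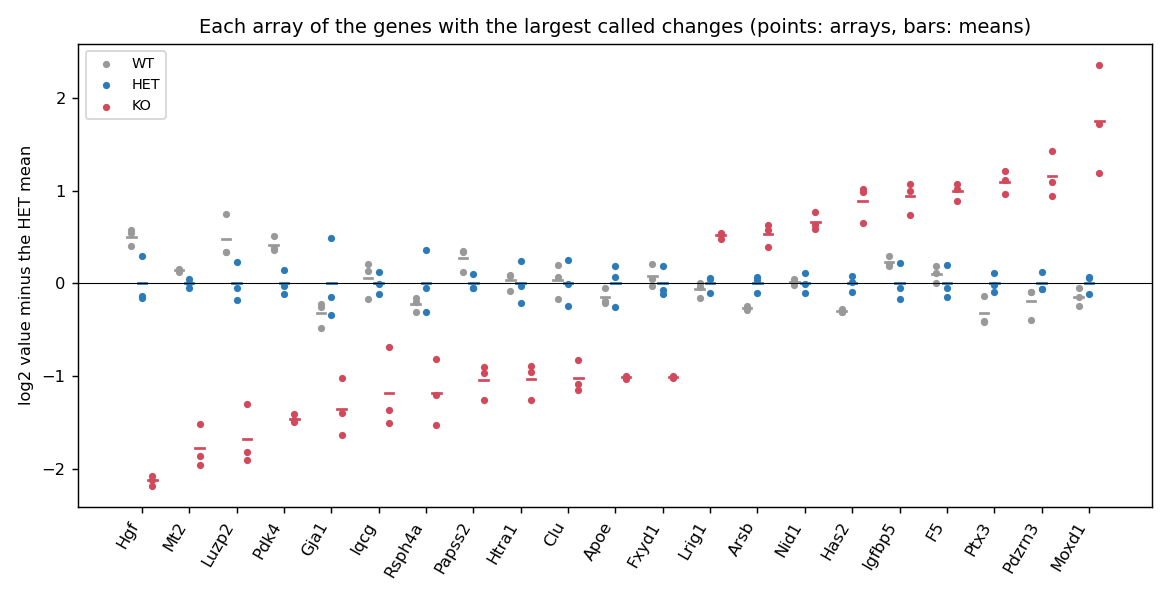
Log2 value of each array minus the mean of the 3 HET arrays (vertical axis) for the 12 genes with the largest called falls and the 9 called rises (horizontal axis); points are arrays of WT (grey), HET (blue) and KO (red), and short bars are group means. In every gene shown the 3 KO arrays lie on 1 side of the 3 HET arrays, closely grouped for Hgf, Pdk4, Apoe and Fxyd1 and widely spread for Moxd1, Iqcg and Rsph4a.

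Genes of the ventral forebrain and its interneurons had no call. Of 21 measured, 18 lay above 0 and 6 were higher at an unadjusted p under 0.05 with none lower, and the median was 0.15; of all genes 51% lay above 0 and 2.87% were higher at that p. List means lay between 7.75 and 7.86 in HET and between 7.99 and 8.06 in KO. Erbb4, the neuregulin receptor of migrating interneurons, read 9.52, 9.38 and 8.82 in HET and 10.19, 9.99 and 10.23 in KO (0.90, SE 0.19, adjusted p = 0.177). The neuropeptide Npy read 8.22, 7.85 and 8.13 in HET and 9.40, 8.51 and 8.76 in KO (0.82, SE 0.19, adjusted p = 0.254), with KO replicate 1 the highest. The neuropeptide Sst read 7.83, 7.79 and 9.04 in HET and 9.05, 8.78 and 8.76 in KO (0.64, SE 0.27); it was the 1 gene of the list to pass in any fit without 1 array, at 1.05 without HET replicate 3 (adjusted p = 0.0229), and is named for that. Lhx6, a regulator of interneurons, lay at 0.48 (SE 0.18) and Gad1, which makes GABA, at 0.24 (SE 0.086).

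Radial glia genes showed 0 calls among 30 and a median of -0.035, with 19 members below 0. Of all genes 0.206% were called and 49% lay below 0. Glul, glutamine synthetase, which astrocytes share, lay at -0.57 (SE 0.14, adjusted p = 0.31), the transcription factor Lhx2 at -0.40 (SE 0.12) and Id4 at -0.23 (SE 0.082). Sox2, the stem cell regulator, lay on the other side of 0 at 0.30 (SE 0.11), and Pax6 at -0.0033 (SE 0.14). The cell cycle list had 0 calls among 33 genes and a median of 0.063, with Aurkb at 0.39 (SE 0.12) and Bub1b at 0.41 (SE 0.16), and inhibitors of the cycle and p53 targets 0 among 17 and a median of 0.011, with Cdkn2b at -0.24 (SE 0.098). At this number of arrays such differences were not detectable, which does not show that they are absent.

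Cortical neurogenesis and differentiated neurons also had no calls. Among 15 genes of intermediate progenitors and the neurogenic cascade the median was -0.010, with Bcl11b at -0.31 (SE 0.12), Eomes at -0.22 (SE 0.11, below the lower quartile of genes on 8 of the 9 arrays) and Neurod6 at 0.24 (SE 0.11, below it on all 9). Among 19 genes of postmitotic neurons it was -0.06, and members pointed both ways, with the glutamate receptor Gria1 at 0.36 (SE 0.097), the neurofilament Nefl at -0.62 (SE 0.24) and the axonal protein Stmn2 at -0.41 (SE 0.14), which passed without HET replicate 1 (adjusted p = 0.0399). The oligodendrocyte lineage had 0 calls among 13 and a median of 0.0086, with the lineage regulator Olig2 at -0.25 (SE 0.094).

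Lists of cells from outside the neural lineage held no calls. Microglia and macrophages had 0 calls among 15 genes and a median of 0.0013 (Mrc1 0.23, SE 0.14), and endothelial cells and pericytes 0 among 15 and 0.043 (Slco1a4, a transporter of the blood-brain barrier, -0.46, SE 0.099). Slco1a4 lay below the lower quartile of genes on all 9 arrays and Mrc1 on 8 of them, where values can be background. Red blood cell genes had 0 calls among the 4 measured and a median of 0.11 (Alas2 0.15, SE 0.13). Meninges and fibroblasts had 0 among 17 and a median of -0.039, with Ogn the lowest and Islr at -0.21 (SE 0.12).

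Signalling and hormone lists held few or no calls. The LIF receptor and JAK-STAT3 list had 0 of 14 and a median of 0.042; in it Lifr read 6.60, 6.56 and 6.43 in HET and 7.48, 6.99 and 7.45 in KO (0.78, SE 0.14, adjusted p = 0.0808), and its partner chain Il6st lay at -0.32 (SE 0.12). Lifr passed without KO replicate 2 (0.0255), with array weights (0.0436) and with quantile normalization (0.0491). Thyroid hormone genes had 0 of 10 and a median of -0.22; Crym, a binder of the hormone, read 7.52, 7.60 and 7.52 in HET and 6.28, 6.59 and 6.41 in KO (-1.12, SE 0.21, adjusted p = 0.0941), and the transporter Slco1c1 lay at -0.68 (SE 0.18). Crym passed without WT replicate 2 (0.00363) and with only the HET and KO arrays in the fit (0.0228). TGF-beta and BMP signalling had 0 of 27 (median -0.012, Bmp6 -0.33), Notch 0 of 19 (median 0.046, Jag1 -0.31) and Wnt 0 of 25 (median -0.027, Wnt5a 0.66).

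Of 27 genes of glutathione, antioxidant enzymes and Nrf2 targets, 20 lay below 0 and 1 fell, with a median of -0.12; of all genes 49% lay below 0 and 0.16% fell. This was Mgst1, a membrane glutathione transferase, which read 5.49, 5.42 and 5.37 in HET and 4.73, 4.52 and 4.76 in KO and fell 1.69-fold (SE 0.12, adjusted p = 0.0437). All 3 KO arrays lay below their lower quartile of genes, so the size of this fall is uncertain. Gsr, glutathione reductase, lay at -0.30 (SE 0.075), Slc7a11, the cystine importer, at -0.39 (SE 0.16) and Nfe2l2, the regulator NRF2, at -0.046 (SE 0.12). The call of Mgst1 passed without WT replicate 3 and was lost without any other array, with adjusted p up to 0.251.

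The remaining lists held 0 calls. The brown fat programme had a median of 0.050 over 13 genes, with Ppargc1a at -0.32 (SE 0.15) and Elovl3 at 0.27 (SE 0.072, below the lower quartile of genes on all 9 arrays), and PRDM16 relatives and partners 0.035 over 16, with Smad3 at 0.25 (SE 0.11). Prdm16 was a member of both. Voltage-gated calcium channels had a median of -0.052 over 17 genes, with the subunits Cacna2d1 at -0.85 (SE 0.23) and Cacng2 at 0.49 (SE 0.11) on opposite sides of 0. The creatine list had 0.0078 over 7, with Gatm, the first enzyme of creatine synthesis, at 7.34, 7.39 and 7.10 in HET and 8.51, 7.93 and 7.99 in KO (0.87, SE 0.16, adjusted p = 0.107, and 0.0488 with Xist as a covariate). Immediate early genes had a median of -0.017 over 19, with Ier3 at 0.24 (SE 0.18), and sex-linked genes 0.086 over 12, with Kdm5c at 0.26 (SE 0.14).

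The other falls, named after their values were seen, were smaller than 2-fold. Alcam, an adhesion molecule of growing axons, read 8.61, 8.92 and 9.17 in HET and 8.18, 8.04 and 7.96 in KO and fell by 0.84 (SE 0.14). Fmo1, a flavin monooxygenase, fell by 0.99 (SE 0.16), Ppp1r36 by 0.92 (SE 0.11) and Fbxo2, an adaptor that sends glycoproteins to degradation, by 0.71 (SE 0.11). The 3 KO arrays of Ppp1r36 and KO replicate 1 of Fbxo2 lay below their lower quartile of genes, so these sizes are uncertain. Plpp3, a lipid phosphatase, fell by 0.71 (SE 0.11), Plagl1, an imprinted zinc finger gene, by 0.68 (SE 0.11) and Aldh9a1, an aldehyde dehydrogenase, by 0.65 (SE 0.09). Selenop, the secreted selenium carrier, fell by 0.58 (SE 0.091), Sirpa, the receptor of CD47, by 0.55 (SE 0.081), the potassium channel Kcnk1 by 0.54 (SE 0.074) and Ccdc190 by 0.64 (SE 0.091).

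Their adjusted p lay between 0.00955 (Ppp1r36) and 0.0437 (Plpp3). With 1 array left out in turn, each of these genes and Me1 lost its call in at least 3 of the 9 fits. Ppp1r36 lost it without HET replicate 2 (adjusted p = 0.0814), KO replicate 2 (0.0547) or KO replicate 3 (0.0566). The highest adjusted p of the 11 others ranged from 0.0858 (Aldh9a1, without KO replicate 2) to 0.287 (Alcam, without HET replicate 2). The last called genes and the first uncalled ones differed little: Mgst1, Plpp3 and Rsph4a passed at 0.0437, and B3gnt2 (0.65, adjusted p = 0.0523), Ttc30b (-0.85, 0.0562) and Itga6 (0.94, 0.058) did not.

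Genes were called for the loss of the second allele and not for the loss of the first, but the difference between these steps had no call. HET against WT had 0 calls (0%) and KO against WT 90 (0.451%); these comparisons share arrays with KO against HET. By limma the difference between the steps, KO minus HET less HET minus WT, had 0 calls, with 952 genes (4.77%) at an unadjusted p under 0.05, while array weights and quantile normalization gave 1 call each, and leaving out HET replicate 1 gave 3 and KO replicate 3 gave 1. HET minus WT had 808 genes (4.05%) at that level.

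Mt2 came closest: its first step was -0.14 (SE 0.11) and its second -1.78 (SE 0.11), a difference of -1.64 (SE 0.19, adjusted p = 0.0797). The WT arrays read 10.22, 10.21 and 10.18, barely above the HET arrays. For Hgf the steps were -0.50 and -2.13, a difference of -1.62 (SE 0.20, adjusted p = 0.103). For Pdk4, which read 8.43, 8.56 and 8.41 in WT, the first step was -0.42 and the second -1.46 (difference -1.04, SE 0.15, adjusted p = 0.234).

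In Apoe and F5 the first step pointed the other way than the second. Apoe lay at 0.15 (SE 0.11) in HET against WT and F5 at -0.099 (SE 0.10), values near their errors, and their differences between steps were -1.16 and 1.09 (adjusted p = 0.349 for both). Prdm16 had steps of -0.36 (SE 0.18) and -1.02 (SE 0.18), and the difference of -0.66 (SE 0.31) did not pass. Papss2, Luzp2, Ptx3 and Has2 had first steps of -0.27, -0.47, 0.32 and 0.30 on the side of their second. Gja1, Rsph4a, Igfbp5 and Nid1 had first steps of 0.32, 0.22, -0.23 and -0.018 on the other side.

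**Figure D4:**
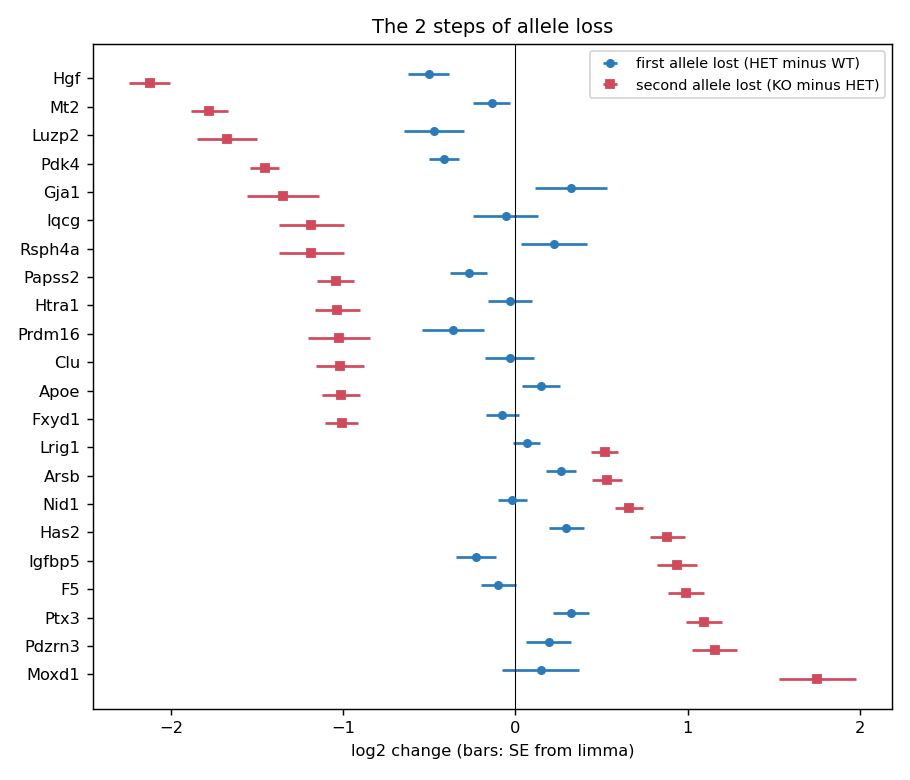
Log2 difference (horizontal axis, bars 1 SE from limma) for the first allele lost (HET minus WT, blue circles) and the second (KO minus HET, red squares) in Prdm16, the 12 largest called falls and the 9 called rises (vertical axis). The first steps lie between -0.50 (Hgf) and 0.32 (Gja1 and Ptx3) and the second between -2.13 (Hgf) and 1.75 (Moxd1); both steps use the same HET arrays, so an error in HET moves them in opposite directions.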

How the data were processed

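The values used are those the authors deposited, on a log2 scale, for 28940 probe sets of 9 arrays. RMA, affy and limma are named, with no version, per the submitters' processing notes; the build and annotation used are not given in the sources used here. No detection calls were used, so low values can be background, and the number of arrays limits the precision. Probe sets with exactly 1 symbol (21789) were kept, those with several (1621) or none (5530) left out, and a gene was represented by its probe set of highest mean on the 9 arrays, giving 19938 genes. RefSeq tables (GRCm38.p6) served for names, gene order and promoter sequences.

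A single model with 1 mean for each genotype was fitted to all 9 arrays (R 4.3.3, limma 3.58.1, lmFit and eBayes, two-sided, 6 residual degrees of freedom); p-values were adjusted over all genes by Benjamini-Hochberg, and an adjusted p under 0.05 was a call. The script was tested on simulated data. The text names Prdm16, up to 12 largest called rises and falls with non-overlapping arrays, up to 3 members per list by smallest p, and 5 genes of the test between steps; further genes are said to be chosen after their values were seen, and list members given beside these as context were likewise. Comparison, members and the 34 gene lists were chosen with earlier results of these data known. Lists were described by counts and medians, with no set test. Alternatives concerned the arrays in the fit, weights, scaling, filters, probe set choice, thresholds, sex and each array left out; 2, on arrays of mixed or low Xist, were added after seeing the data.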

Additional observations from a re-analysis of the deposited data

Results flagged for a closer look

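Probe sets with several gene symbols or none take no part in the comparison above. When every probe set was tested, 3 of these 7151 passed in KO against HET by limma with Benjamini-Hochberg adjustment, all 3 with no listed symbol, 1 of them higher in KO and 2 lower. Probe set 10453487 lay at 7.32, 8.18 and 7.33 in HET and 5.47, 5.54 and 5.66 in KO (log2 difference -2.05, SE 0.23, adjusted p = 0.0138), a fall near the size of that of Hgf. Probe set 10494643 lay at -1.09 (SE 0.13) and probe set 10409276 at 0.66 (SE 0.092). Which transcripts they measure is not known here.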

How the results depend on the processing

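All 41 called genes kept their sign in every setting run, as was largely given by HET and KO arrays that did not overlap. None was called in all of the settings. The 5 arrays with low Xist left 1 KO array, assumed to vary like the other groups, and no gene kept its call there. In all other settings Hgf, Mt2, Pdk4, Fam107a and Ptx3 stayed called, and each further called gene lost its call in at least 1. In place of 41, the calls numbered 8 with only the HET and KO arrays in the fit, 26 when every probe set was tested, 24 with median centring, 24 with Xist as a covariate, 8 without the 2 arrays that read as both sexes, and 12 to 75 with 1 array left out. They stayed within 1.5 times of 41 under trend and robust settings (42), array weights (31), the dim filter (39), probe sets averaged per gene (40), quantile normalization (48), adjusted p under 0.10 (55), at least 1.5-fold (34), without sex-linked genes (41) and without HET replicate 1 and KO replicate 2 (32, of which 13 were among the 41). Same-numbered HET and KO arrays deviated from their group means with correlations of -0.336, -0.273 and -0.108, so the numbers were not taken as pairs; with the replicate number as a block 19 genes passed, the test between the steps still gave 0, and Prdm16 still did not pass. The test between the steps gave 0 calls, but 1 with array weights, 1 with quantile normalization, 1 at an adjusted p under 0.10, 2 without HET replicate 1 and KO replicate 2 and 0 to 3 with 1 array left out; it could not be fitted without WT. Prdm16 passed with array weights (-1.19), quantile normalization (-0.99) and an adjusted p under 0.10 (-1.02), and ranged from -1.18 to -0.82 with 1 array left out. The causes were not tested. The array count limits what the values can show, as does signal below the lower quartile of an array, which 10 of the 41 genes had on at least 1 array: Hgf, Iqcg, Rsph4a, Ppp1r36, Kif27, Mgst1, Fbxo2 and Hapln1 in KO, F5 in HET and WT, and Moxd1 in HET replicate 1 and WT.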
